A study of Mus musculus with 9 samples.

Results

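Some stretches of the mouse genome gave rise to several overlapping circular RNAs (circRNAs) in the embryonic day 14.5 cortex, and these hotspot loci are described here. The table of circRNAs held 5281 entries, of which 7 repeated the coordinates of another entry and 26 lay in a region of very high counts on chromosome 17 (chr17:39979944-39985671, mm9). These were left out. The remaining 5248 circRNAs were joined into 3646 loci wherever intervals on the same chromosome and strand overlapped by at least 1 base, and loci with 5 or more circRNAs were kept. There were 88 such loci (2.41% of loci), and they held 537 circRNAs (10.2% of circRNAs). Each of the 88 loci fell into a single parental gene of the GENCODE annotation, and no gene held more than 1 of them.

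A circRNA forms when the spliceosome joins the end of an exon back to the beginning of the same or an earlier exon, so that the product has no free ends and resists the exonuclease RNase R. One gene can give several circRNAs when a splice acceptor pairs with alternative donors downstream, or a donor with alternative acceptors upstream. Circular RNAs are abundant in brain, and their parental genes often act at synapses, in chromatin or in signaling.

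RNA came from the lateral cortex of C57BL/6 mouse embryos that were double heterozygous for the reporters Btg2-RFP and Tubb3-GFP, and all 3 groups carried both reporters. Cells were sorted on fluorescence into proliferative progenitors (PP, negative for both), differentiative progenitors (DP, positive for RFP and negative for GFP) and newborn neurons (N, positive for GFP), with 3 libraries of RNase R-treated total RNA for each group. The groups are therefore gates on 2 reporters, and how many embryos were pooled for a library, or whether libraries of the same number shared animals, was not given by the labels. The study describes the libraries of each cell type as biological replicates.

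The back-splice junctions of the loci with the largest change between cell types are shown first, because these bases exist in no linear transcript of the annotated exon order. For each of 8 loci the circRNA with the highest read density is given, as the last 25 bases of its last exon in lower case followed by the first 25 bases of its first exon in capitals, read from the mm9 genome in the direction of the gene.
Myt1l, exons 19 to 21, chr12:30570988-30580179, plus strand: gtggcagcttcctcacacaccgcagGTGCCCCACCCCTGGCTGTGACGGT
Sox5, exon 3 alone, chr6:144064964-144065174, minus strand: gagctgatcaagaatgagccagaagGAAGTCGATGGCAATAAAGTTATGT
Nbea, exons 2 to 6, chr3:55889164-55895042, minus strand: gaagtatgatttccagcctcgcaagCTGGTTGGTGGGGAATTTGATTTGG
Odz4, exons 9 to 14, chr7:103877859-103926529, plus strand: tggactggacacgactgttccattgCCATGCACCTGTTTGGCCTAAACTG
Etl4, exon 5 alone, chr2:20631032-20631230, plus strand: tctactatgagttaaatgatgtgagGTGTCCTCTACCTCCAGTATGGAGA
Diap3, exons 21 to 22, chr14:87251879-87266449, minus strand: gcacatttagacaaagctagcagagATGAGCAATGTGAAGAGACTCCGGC
Cdon, exons 2 to 3, chr9:35259630-35260518, plus strand: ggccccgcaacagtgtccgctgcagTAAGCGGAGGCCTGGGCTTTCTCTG
Fgfr2, exons 4 to 5, chr7:137372137-137384791, minus strand: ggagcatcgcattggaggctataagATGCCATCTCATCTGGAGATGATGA

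The loci differed in how far their circRNAs shared splice sites, and frequently used sites of Ezh2 and Ehmt1, which are among the loci with the most circRNAs, are shown with the intron dinucleotide next to the exon in capitals. In Ezh2 a single acceptor, that of exon 2, was the start of 7 of the 11 circRNAs, whereas the most used acceptor of Ehmt1 served 4 of 13.
Ezh2 acceptor, chr6:47527642-47527691, minus strand: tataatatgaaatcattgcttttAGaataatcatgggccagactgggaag
Ehmt1 acceptor, chr2:24733122-24733171, minus strand: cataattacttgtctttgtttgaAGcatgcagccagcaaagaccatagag
Ehmt1 donor, chr2:24718718-24718767, minus strand: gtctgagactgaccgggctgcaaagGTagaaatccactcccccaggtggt
The donor of Ehmt1 shown here closed 3 circRNAs, as did another Ehmt1 donor, at position 24739666. All 537 hotspot circRNAs had AG before the first base and GT after the last base of the interval.

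Libraries held between 2962787 and 8015311 counts over the whole table, and hotspot circRNAs took 20.1% to 24.9% of the counts left after the chromosome 17 region and the entry with the highest count were set aside. In PP replicate 3 the counts left were 20785 in hotspot circRNAs and 62709 in others, of 2962787 in all. In DP replicate 1 they were 63252 and 224001, of 6569620. In every library most counts thus lay in entries outside these, and scaling by total counts mainly follows them. PP replicate 3 and N replicate 1 stood apart. Over hotspot circRNAs, counts of PP replicate 3 had Spearman correlations of 0.651 and 0.642 with the other PP libraries, which correlated at 0.945 with each other, and N replicate 1 had values of 0.828 and 0.861 against 0.973 between the other N libraries. These correlations are across circRNAs, which are not independent replicates. The marker lists were chosen with earlier results of these data known, so their sums are no independent check of cell identity. Among markers, the summed level of 24 circRNAs from 8 of 18 progenitor genes was 388 to 524 CPM in PP (counts scaled to 1000000 of the TMM effective library size) and 75.2 to 92.1 in N (Fgfr2, a hotspot, is among them). That of 31 circRNAs from 10 of 16 neuronal genes was 46.9 to 72.9 in PP and 598 to 931 in N (Myt1l and Sox5, both hotspots, are among them). A list of 8 genes of differentiative progenitors had 3 circRNAs from only 2 genes, Elavl4 and Kif26b. Their summed level was 6.04 to 7.52 CPM in PP, 31.7 to 38.3 in DP and 9.29 to 13.9 in N. Elavl4 is also in the list of axon guidance and synapse genes used below, and Kif26b in that of cell division. Interneuron genes (1 of 9 with circRNAs) had 0 to 2.32 CPM in PP, 0 to 0.248 in DP and 3.45 to 6.74 in N, and Cajal-Retzius genes (1 of 4) had 5.31 to 6.39 in N and at most 0.246 elsewhere, and the part of such cells in the results was not tested. No circRNA was listed for 9 endothelial or mural, 6 microglial or blood, 5 meningeal and 4 oligodendrocyte lineage genes. The defining genes Eomes, Pax6, Sox2, Tubb3 and Dcx had none either, nor did Btg2, the gene of the RFP reporter.

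**Figure D1:**
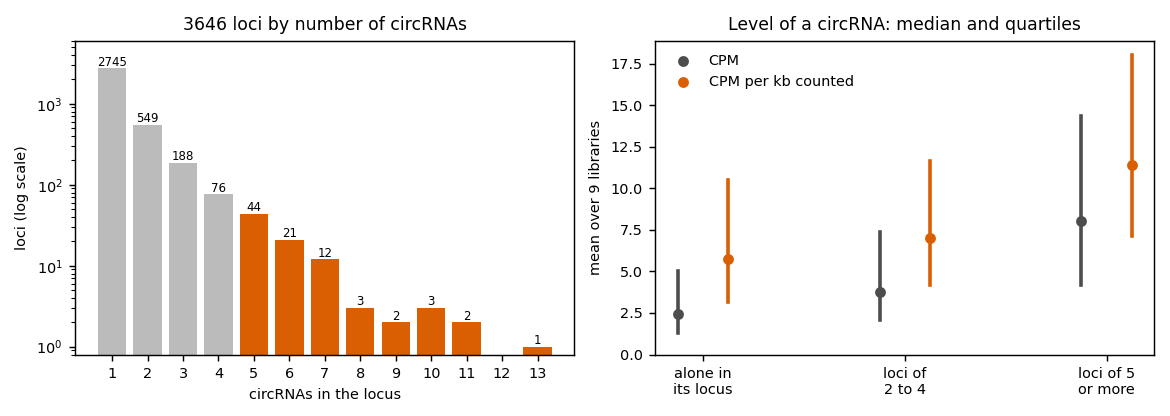
Left: number of loci (log scale) by the number of circRNAs they hold, with the 88 loci of 5 or more in orange. Right: level of single circRNAs, as the mean over 9 libraries in CPM (grey) and CPM per kb of counted length (orange), in loci of 1, of 2 to 4 and of 5 or more circRNAs, where points are medians and lines run between quartiles. Median CPM was 2.47, 3.76 and 8.03 in the 3 classes.

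Most hotspots were small. Of the 88 loci, 44 held 5 circRNAs, 21 held 6 and 12 held 7, while 3 held 8, 2 held 9, 3 held 10, 2 held 11 and 1 held 13. Just below the threshold, 76 loci held 4. A hotspot locus spanned a median of 39791 bases, from 9554 bases to the 213873 bases of Sox5. The locus with 13 circRNAs was Ehmt1, which encodes a histone H3 lysine 9 methyltransferase. Ezh2, the histone H3 lysine 27 methyltransferase of the Polycomb complex, held 11. Further large loci were Rere, a nuclear receptor coregulator, and the actin nucleator gene Spire1 with 10 each, while Zfp827 and Prrc2b held 9 each.

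Every circRNA of a hotspot overlapped at least 1 other by the rule that joined them, so that nesting is given as a description. Of 1486 pairs of circRNAs within a locus, 788 (53.0%) were nested, 283 overlapped in part and 415 lay apart. A total of 491 circRNAs (91.4%) shared their start or their end with another circRNA of the locus, and a locus used a median of 4 starts and 4 ends. The shared acceptor of Ezh2 was matched by Strn3, a striatin family gene, where 7 of 8 circRNAs began at the same acceptor. In Rabgap1, a Rab GTPase-activating protein gene, the same held for 6 of 7 circRNAs. A pair of Ezh2 circles that began at the exon 2 acceptor differed only in closing at position 47526535 or 47526562 of chromosome 6, and another pair closed at 47501716 or 47501731.

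The size of a circRNA bears on the rule itself, since intervals were joined by overlap and a longer interval has more room to overlap others, so sizes are given as a description. The interval of hotspot circRNAs had a median of 12751 bases against 8619 in loci of 2 to 4 and 3046 for circRNAs alone in their locus, and they held a median of 4 exons against 3 and 2. Only 24 of 536 consisted of 1 exon. The upstream flanking intron had a median of 10050.5 bases in hotspots, 8804 in loci of 2 to 4 and 5081 for circRNAs alone. The second exon of the transcript was the first exon of the circle in 134 hotspot circRNAs (25%, in 47 loci), in 29.3% of those of loci of 2 to 4 and in 26.2% of those alone. An exact reverse-complement match of 20 bases between the 1000 bases before and the 1000 bases after the circle, with simple repeats left out by asking for at least 10 distinct triplets, was present for 10 hotspot circRNAs (1.86%) and for 4.19% of all circRNAs. These classes were compared by description, since circRNAs of a locus share their ends.

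The level of a hotspot circRNA was also higher than that of others. The median over 9 libraries was 8.03 CPM in hotspots, 3.76 in loci of 2 to 4 and 2.47 for circRNAs alone, and per kilobase of counted length the medians were 11.4, 7.0 and 5.73. A count in every library was present for 514 hotspot circRNAs (95.7%), compared with 88.4% and 75.1%. In loci of exactly 5 circRNAs the median was 6.39 CPM and in loci of exactly 4 it was 4.21 CPM, against 8.27 CPM in those of exactly 6. The part of read depth in the number of circRNAs found for a locus was not tested.

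Counts of overlapping circles were not separate measurements. In all 788 nested pairs the outer circRNA had at least as many counts as the inner one in every library, as when a read is counted for each circRNA that spans it. The counts summed over a locus were a median of 3.08 times those of its best set of circRNAs without overlap, with a range of 1.59 to 5.47. Summed CPM below therefore serve to compare libraries of the same locus, never one locus with another. For 444 circRNAs the counted length equalled that of the annotated exons within the interval plus 1 base for each exon, but 21 circRNAs of at least 2 exons, in 10 loci, were counted over their whole span with the introns. Among these were 5 of the 8 Cdon and 4 of the 5 Meis2 circRNAs. Intronic reads and reads of linear RNA that survived RNase R cannot be told apart from circular ones in such counts.

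Between PP and N, 24 of the 88 hotspot loci changed in their summed counts, 10 upward and 14 downward (edgeR quasi-likelihood test with Benjamini-Hochberg adjustment over 2989 loci, adjusted p under 0.05). This was 27.3% of hotspots, while 29.1% of all loci tested were called, 14.1% upward and 15% downward. Of single circRNAs, 519 hotspot members passed the filter on low counts and 18 did not. Of the 519, 65 were higher and 72 lower in N, 26.4% in all, with 28.1% called among the 4406 circRNAs tested, 13.7% higher and 14.4% lower. Their median log2 fold change was -0.10 and that of all circRNAs tested -0.09. The share of changed circRNAs in hotspots was thus near that of the whole table. In sorted bulk samples, fewer cells that make a circRNA and less of it in each cell cannot be told apart. Under scaling by total counts the median of all circRNAs moved to -0.37, and 66 hotspot circRNAs were called, of which 17 were higher, so that the split of 47.4% higher became 25.8%. Without PP replicate 3 and N replicate 1, 46 hotspot loci and 242 hotspot circRNAs were called. Shares called over the whole table are given for the main fit only. Counts from other fits therefore do not compare hotspots with other circRNAs.

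**Figure D2:**
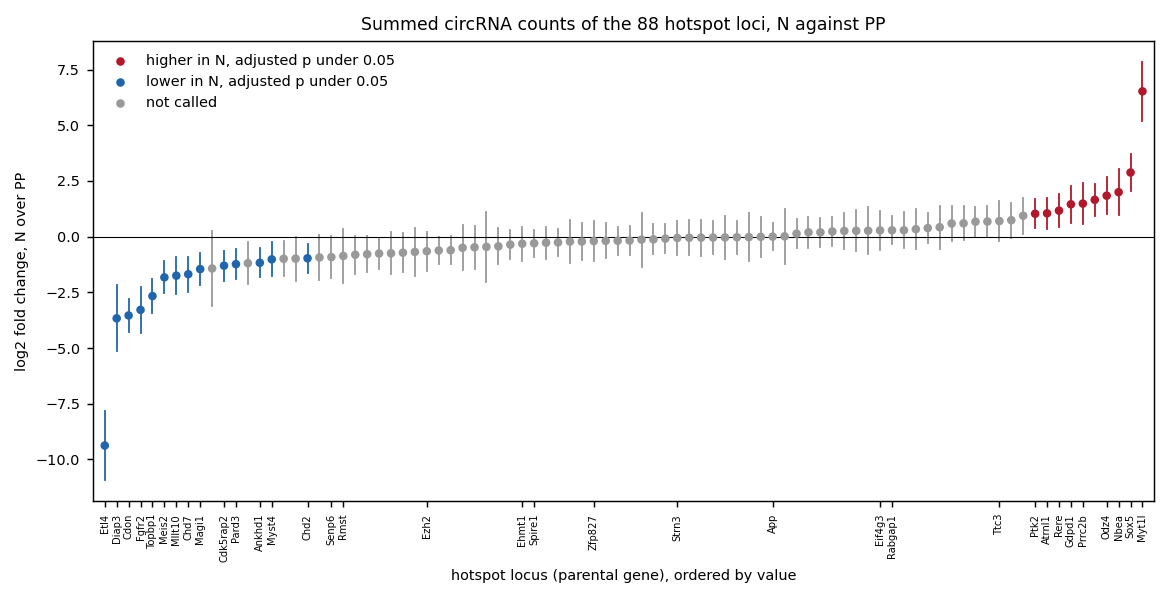
Log2 fold change of summed circRNA counts, N over PP, for each of the 88 hotspot loci in order of value and with names for those described in the text, with lines for the 95% interval from edgeR and colour for the 24 loci with an adjusted p under 0.05. Most loci lie near 0, while Myt1l at 6.52 and Etl4 at -9.38 lie farthest out, both against a group with almost no counts, so that these fitted values depend on the prior count.

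Transcription factor loci included the hotspot with the steepest rise. Myt1l encodes a zinc finger factor that represses other fates in neurons. Its locus (chr12:30511731-30580179, plus strand) gave 5 circRNAs. Summed CPM were 0.519, 0.645 and 4.64 in the PP libraries, 17.8, 22.4 and 22.7 in DP, and 123, 161 and 144 in N. No library of one cell type overlapped those of another, and PP replicate 3 was the highest of the PP libraries. Myt1l was the only hotspot locus called in all 3 comparisons, at a log2 fold change of 3.76 (SE 0.59, edgeR adjusted p = 0.00443) from PP to DP and 2.76 (SE 0.48, edgeR adjusted p = 0.00105) from DP to N. The Myt1l circRNA of exons 11 to 18 had no count in any PP library, 20, 31 and 29 counts in DP and 40, 206 and 129 in N. Against the mean floor of 3 counts in each PP library, 0.885 CPM, it was at least 3.65-fold higher in DP and at least 23.7-fold higher in N.

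Sox5 encodes a factor of deep-layer projection neurons, and its 6 circRNAs lay in the longest hotspot locus, chr6:143889871-144103743 (minus strand). Summed CPM were 23.3, 26.6 and 32.5 in PP, 36.1, 30.8 and 49.4 in DP, and 305, 122 and 179 in N. The N libraries stood above all others but differed among themselves, with N replicate 1 the highest. The log2 fold change was 2.88 (SE 0.39, edgeR adjusted p = 9.14e-05) from PP to N and 2.38 (SE 0.38, edgeR adjusted p = 0.0005) from DP to N, whereas that from PP to DP was 0.50 with a 95% interval of -0.29 to 1.29. All 6 circRNAs of Sox5 were called from PP to N, with log2 fold changes between 2.36 and 3.04.

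Meis2, a homeodomain factor, went the other way. Summed CPM were 856, 1028 and 469 in PP, 412, 437 and 486 in DP, and 211, 207 and 245 in N. All N libraries were below all others, and the log2 fold change from PP to N was -1.83 (SE 0.34, edgeR adjusted p = 0.000997). Its exon 9 circle, which contains no intron, was also lower in N, at -1.67 (SE 0.29, edgeR adjusted p = 0.00064). Its counts were 81, 143 and 39 in PP against 12, 67 and 37 in N. Rere had summed CPM of 57.6, 49.7 and 109 in PP and 204, 127 and 153 in N. The log2 fold change of Rere was 1.17 (SE 0.35, edgeR adjusted p = 0.0209), and under total-count scaling its call was lost, with an adjusted p of 0.252, as it was without PP replicate 1, PP replicate 2 or N replicate 3, with an adjusted p of at most 0.0991. In all, the list of 49 transcription factor genes held 7 hotspot loci, of which 3 rose and 1 fell between PP and N, where 14.1% of all loci tested rose and 15% fell. Over the whole list 38 of 106 circRNAs tested rose and 12 fell, where 13.7% of all circRNAs tested rose and 14.4% fell.

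Nbea, Odz4 and Prrc2b also rose in N. Nbea encodes a scaffold of membrane trafficking at synapses, and its 5 circRNAs (chr3:55833805-55895042, minus strand) began at exons 2, 8 and 9. Summed CPM of Nbea were 14.5, 18.1 and 49.2 in PP, 28.8, 31.1 and 34.5 in DP, and 52.2, 144 and 124 in N. The lowest N library, replicate 1, was just above PP replicate 3. The log2 fold change of Nbea was 2.0 (SE 0.48, edgeR adjusted p = 0.00599) from PP to N and 1.77 (SE 0.47, edgeR adjusted p = 0.0157) from DP to N. The call from DP to N held in 4 of the 9 fits that left out 1 library, being lost without any of the DP libraries, N replicate 2 or N replicate 3 (edgeR adjusted p at most 0.0717), and it was lost under total-count scaling, at 0.139. Odz4 encodes a teneurin, a large transmembrane protein of neuronal contacts (chr7:103851152-103946015, plus strand). Its summed CPM were 70.3, 54.0 and 92.9 in PP, 129, 134 and 151 in DP, and 404, 148 and 223 in N, a log2 fold change of 1.84 (SE 0.38, edgeR adjusted p = 0.00233) from PP to N. DP and N libraries of Odz4 overlapped.

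Prrc2b rose by 1.49 (SE 0.42, edgeR adjusted p = 0.0159) on the log2 scale, from summed CPM of 209.8, 188 and 369 in PP to 1184, 382 and 579 in N. Here N replicate 1 stood far above the other N libraries, and without N replicate 1, PP replicate 1 or PP replicate 2 the adjusted p exceeded 0.05, at most 0.0703. Under total-count scaling it was 0.101. The focal adhesion kinase locus Ptk2, Atrnl1 and Gdpd1 also rose, with log2 fold changes of 1.03, 1.05 and 1.45.

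**Figure D3:**
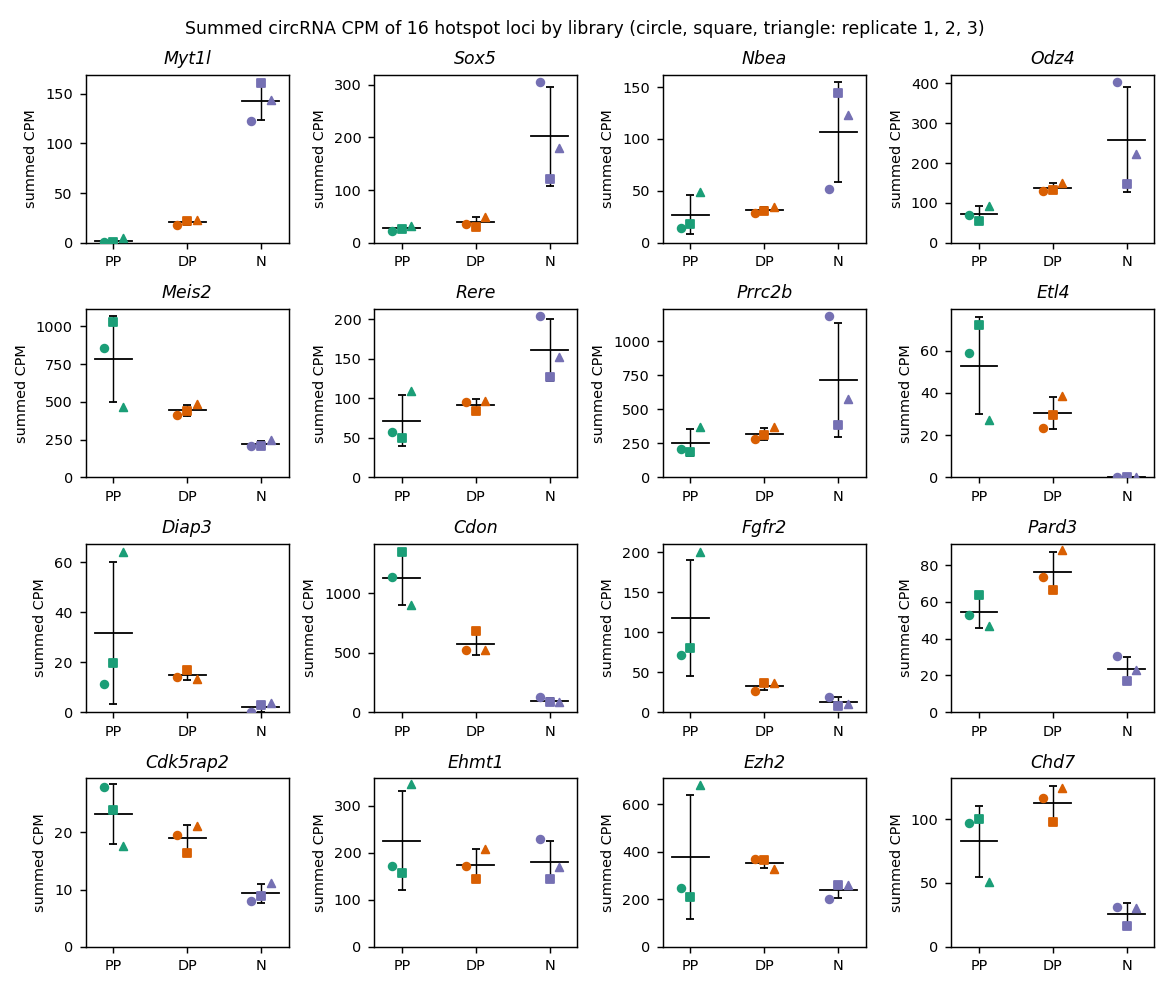
Summed CPM of the circRNAs of 16 hotspot loci in each library, with horizontal lines for the mean and error bars for 1 SD of 3 libraries. PP replicate 3 (triangle) is the highest PP library in Myt1l, Sox5, Nbea, Odz4, Rere, Prrc2b, Diap3, Fgfr2, Ehmt1 and Ezh2, and the lowest in the other loci drawn. N replicate 1 (circle) is the highest N library in Sox5, Odz4, Rere, Prrc2b, Cdon, Fgfr2, Pard3, Chd7 and Ehmt1.

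Fgfr2 and Pard3, the hotspots in the list of progenitor receptors, Notch and adhesion, both fell from PP to N, as did Cdon and Magi1, which are in no list used here. Fgfr2, a fibroblast growth factor receptor of neural progenitors, gave 6 circRNAs from exons 3 to 6 (chr7:137362512-137386158, minus strand). Summed CPM were 71.8, 79.8 and 201 in PP, 26.7, 36.0 and 36.7 in DP, and 19.5, 8.13 and 9.52 in N. The groups did not overlap. The log2 fold change of Fgfr2 was -3.29 (SE 0.48, edgeR adjusted p = 0.000165) from PP to N and -1.47 (SE 0.45, edgeR adjusted p = 0.0348) from DP to N. The call from DP to N was lost with a replicate block (edgeR adjusted p = 0.0533) and without any of the DP libraries, N replicate 2 or N replicate 3 (at most 0.154). From PP to DP the locus had -1.82 and just missed the threshold (edgeR adjusted p = 0.0508), while its 3 circRNAs that contain exon 3 were called.

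Cdon, a co-receptor of Sonic hedgehog, gave 8 circRNAs (chr9:35259630-35299509, plus strand), 5 of which began at exon 2. Summed CPM were 1140.0, 1346 and 898 in PP, 519, 683 and 525 in DP, and 123, 83.4 and 85.8 in N. Every DP library lay below every PP library and above every N library. The log2 fold change of Cdon was -3.54 (SE 0.34, edgeR adjusted p = 7.81e-06) from PP to N and -2.57 (SE 0.33, edgeR adjusted p = 0.000118) from DP to N, and all 8 circRNAs were called in both. The shortest circle, of exons 2 to 3, was itself counted over the intron between them. It had 106, 159 and 38 counts in PP and 10, 13 and 7 in N.

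Pard3 and Magi1 encode scaffolds of cell polarity and junctions. Their highest levels were in DP, with summed CPM of 73.8, 66.7 and 88.1 for Pard3 against 53.2, 63.9 and 46.9 in PP and 30.5, 17.1 and 23.0 in N. For Magi1 the values were 70.0, 81.4 and 80.9 in DP, 61.2, 60.6 and 29.7 in PP and 19.5, 16.5 and 19.7 in N. The DP libraries stood above the PP libraries without overlap in both loci, but neither difference was called, with 95% intervals of -0.18 to 1.13 and -0.08 to 1.30 (edgeR adjusted p = 0.619 and 0.495). From DP to N the log2 fold changes were -1.71 (SE 0.32, edgeR adjusted p = 0.00159) for Pard3 and -2.06 (SE 0.34, edgeR adjusted p = 0.000611) for Magi1. From PP to N they were -1.23 for Pard3 (edgeR adjusted p = 0.00897) and -1.46 for Magi1 (edgeR adjusted p = 0.00442).

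The steepest fall was that of Etl4, which had 5 circRNAs from exons 4 to 10 (chr2:20583525-20688238, plus strand). Its circRNA of exons 5 to 9 had 99, 191 and 21 counts in PP, 95, 114 and 115 in DP, and 0, 0 and 1 in N. In the other 4 circRNAs of Etl4 no N library had a count. By pooled counts the circRNA of exons 5 to 9 was 432-fold higher in PP than in N, with a 95% counting interval of 77.0 to 17114 that covers counting error only. Against a mean floor of 0.723 CPM in N, the circRNA of exons 4 to 6 was at least 15.5-fold and the exon 5 circle at least 8.59-fold higher in PP. Summed CPM of Etl4 were 58.9, 72.2 and 27.4 in PP and 23.5, 29.7 and 38.5 in DP, which overlapped.

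The list of cell division, centrosome and DNA repair genes held 2 hotspot loci, and both fell between PP and N. Diap3 is a formin that assembles actin during cytokinesis. Its 6 circRNAs (chr14:87171893-87309930, minus strand) had summed CPM of 11.4, 19.7 and 64.1 in PP, 14.1, 16.9 and 13.4 in DP, and 0, 2.67 and 3.61 in N. All N libraries were lowest, and the log2 fold change from PP to N was -3.67 (SE 0.69, edgeR adjusted p = 0.00118). Cdk5rap2, a centrosomal protein required for brain size, had summed CPM of 28.0, 23.9 and 17.6 in PP and 7.97, 8.95 and 11.2 in N. The log2 fold change of Cdk5rap2 was -1.30 (SE 0.31, edgeR adjusted p = 0.00585), and its call was lost under total-count scaling, at an adjusted p of 0.0837. Over the whole list of 89 genes of cell division, centrosome and DNA repair, 61 of 120 circRNAs tested fell between PP and N and 1 rose, where 14.4% of all circRNAs tested fell and 13.7% rose. Topbp1, a DNA replication checkpoint protein outside that list, had summed CPM of 115, 88.2 and 60.4 in PP and 11.5, 17.1 and 12.6 in N, a log2 fold change of -2.67 (SE 0.35, edgeR adjusted p = 7.28e-05). The DNA repair gene Msh3 and Trim37, also hotspots outside that list, were not called from PP to N. Their log2 fold changes were -0.05 and -0.79 (edgeR adjusted p = 0.947 and 0.139).

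Chromatin regulators were the list with the most hotspots, 8 loci with 59 circRNAs of 89 genes, beside 7 loci in the shorter list of 49 transcription factor genes. Of the 8 chromatin regulator loci, 3 fell between PP and N while none rose, where 15% of all loci tested fell and 14.1% rose. Over the whole list 20 of 212 circRNAs tested fell and 9 rose, where 14.4% of all circRNAs tested fell and 13.7% rose. Both shares of the list were thus below those of the whole table. Chd7, a chromatin remodeler, had summed CPM of 97.2, 99.8 and 50.6 in PP, 117, 98.1 and 124 in DP, and 31.4, 15.9 and 30.5 in N. Its log2 fold change was -2.13 (SE 0.37, edgeR adjusted p = 0.00108) from DP to N and -1.68 (SE 0.37, edgeR adjusted p = 0.00326) from PP to N. The 2 circRNAs that lie within exons 4 to 8 had the lowest values, -2.49 and -2.45, against -1.55 for the exon 2 circle, a spread within which no unequal change was called. The histone acetyltransferase gene Myst4 and the remodeler gene Chd2 fell by 1.02 and 0.97 on the log2 scale. Mllt10, a cofactor of histone methylation that is in no list used here, had -1.75, and Ankhd1 completed the 14 loci that fell, at -1.17.

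Ehmt1 and Ezh2 were called in no comparison. Ehmt1 (chr2:24695050-24742589, minus strand) had summed CPM of 171, 158 and 347 in PP, 173, 143 and 209 in DP, and 229, 144 and 169.7 in N, and its log2 fold change from PP to N was -0.32 with a 95% interval of -1.08 to 0.45. Ezh2 (chr6:47490676-47527666, minus strand) had 247, 209 and 679 in PP against 201, 259.6 and 259.6 in N, so that PP replicate 3 alone lay far above the rest, and the log2 fold change of -0.65 had an interval of -1.52 to 0.22. Without PP replicate 3 and N replicate 1 the value of Ezh2 from PP to DP changed from -0.10 to 0.65 and was then called. Spire1, with 10 circRNAs, had -0.30 with an interval of -0.89 to 0.30, and Zfp827 had -0.20 with an interval of -1.09 to 0.69. The intervals of Ehmt1, Ezh2 and Zfp827 still allow a change by 1 log2 unit downward.

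The remaining lists contributed few hotspots. As the lists are not complete, these counts describe the lists and not whole classes of genes. The 84 genes of RNA binding, splicing and nuclear transport held 5 loci with 36 circRNAs, and none was called from PP to N. Eif4g3, a translation initiation factor, had 0.28 with an interval of -0.58 to 1.14. Of 68 genes of ubiquitin and protein turnover, 2 were hotspots and neither was called. Senp6, a SUMO protease, had a log2 fold change of -0.92 with an interval of -1.85 to 0.01. Of 128 genes of axon guidance, adhesion, synapse and neuronal cytoskeleton, 2 were hotspots, again without a call. The hotspots Nbea and Odz4, which rose from PP to N, are not in that list. Ttc3, counted here although a ubiquitin ligase gene, had 0.70 with an interval of -0.19 to 1.59. In that list 66 of 146 circRNAs tested rose from PP to N and 4 fell, beside 13.7% and 14.4% of all circRNAs tested, and 1 of those that rose, the Ttc3 circRNA of exons 11 to 15, was in a hotspot. Of 48 genes of progenitor receptors, Notch and adhesion, Fgfr2 and Pard3 were hotspots, and of 60 circRNAs tested in the whole list 34 fell and 8 rose, where 14.4% of all circRNAs tested fell and 13.7% rose. A total of 60 hotspot loci were in no list.

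Between PP and DP, 1 hotspot locus (Myt1l) and 7 hotspot circRNAs were called. The circRNAs were 4 of Myt1l, which rose, and the 3 of Fgfr2 that contain exon 3, which fell. Of all loci tested 2.01% were called (1.57% higher, 0.435% lower) and of all circRNAs 1.86% (1.48% higher, 0.386% lower). The libraries of PP and DP did not overlap in 13 hotspot loci (14.8%), with 19.7% among all loci. PP replicate 3 moved these counts. Without it, 32 hotspot circRNAs were called, and without PP replicate 3 and N replicate 1, 120 hotspot circRNAs and 23 loci were called. The shares over all circRNAs and loci in these fits are not given. The Fgfr2 circle of exons 3 to 4 was counted over its whole span of 1445 bases with the intron, and the other 2 had counted lengths above those of their exons. The longest Fgfr2 circle, of exons 3 to 6, had 69, 120 and 111 counts in PP against 56, 68 and 69 in DP, a log2 fold change of -1.90 (SE 0.43, edgeR adjusted p = 0.0342).

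Between DP and N, 14 hotspot loci were called, 4 upward and 10 downward, or 15.9% compared with 19.2% of all loci, of which 9.53% were called higher and 9.7% lower. Of hotspot circRNAs 31 were higher and 53 lower, 16.2% in all, and 18.8% of all circRNAs tested were called, 9.03% higher and 9.80% lower. The loci that rose were Myt1l, Sox5, Nbea and Atrnl1. The largest falls were those of Etl4, Diap3 and Cdon. Under total-count scaling 10 of 60 called hotspot circRNAs were higher, 16.7% in place of 36.9%. Rmst, a long noncoding RNA gene of neural differentiation with 7 circRNAs, had summed CPM of 20.7, 34.2 and 151 in PP, 97.9, 132 and 97.8 in DP, and 41.6, 30.1 and 40.2 in N. PP replicate 3 was the highest library, and the DP and N libraries did not overlap. The locus missed the threshold from DP to N (log2 fold change -1.55, SE 0.56, edgeR adjusted p = 0.0707), while 3 of its circRNAs were called lower in N. Rmst was chosen after its values were seen.

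Circles of a locus moved together. In no hotspot locus was one circRNA called upward and another downward, in any comparison. Between PP and N, 30 loci had at least 1 called circRNA, and in 17 of these all tested circRNAs were called, 98 of the 137. The log2 fold changes of single circRNAs had an SD of 1.57 over all hotspots and a pooled SD of 0.34 within loci. The 137 were 26.4% of the hotspot circRNAs tested, where 28.1% of all circRNAs tested were called. As nested circles share reads, agreement within a locus is in part built into the counts. The same values were not worked out for loci with fewer circRNAs, so this agreement is not shown to be particular to hotspots. Unequal change was tested as the change of each circRNA relative to the others of its locus (edgeR diffSpliceDGE, Simes p for each locus, Benjamini-Hochberg adjustment over 782 loci). It was called for 0 loci between PP and DP, 0 between DP and N and 1 between PP and N, or 0%, 0% and 0.128% of loci tested. At an unadjusted p under 0.05 there were 0, 1 and 2 of the 782 loci (0%, 0.128% and 0.256%), and 0, 1 and 1 of these were hotspots.

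**Figure D4:**
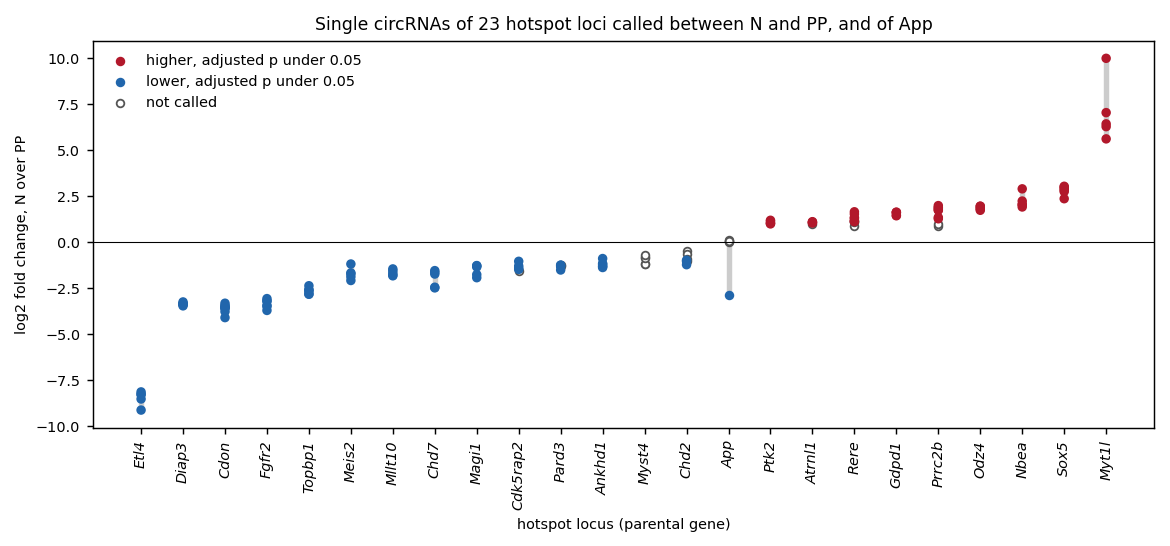
Log2 fold change, N over PP, of each tested circRNA in 23 of the 24 hotspot loci called between N and PP, and in App, with filled points for an adjusted p under 0.05 and grey bars for the range within the locus. In App 1 circRNA lies at -2.88 while the other 4 lie between 0.02 and 0.13, and the wide range of Myt1l comes from the circRNA of exons 11 to 18 without a count in PP, whose value of 9.99 depends on the prior count.

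The locus with unequal change was App, which encodes the amyloid precursor protein. It gave 5 circRNAs from exons 7 to 13 (chr16:85013872-85043988, minus strand). The smallest, CiCo_mm9_circ_002443, consisted of exon 7 (168 bases, chr16:85043821-85043988), which encodes the Kunitz protease inhibitor domain, and exon 8 (57 bases, chr16:85040496-85040552). Both exons are alternative. Of 5 App transcripts in the annotation, 3 contain both exons as given and App-201 contains neither, and as background, the main App mRNA of neurons skips both. The joined exons, read from mm9 with exon 8 in capitals, are shown because the App circRNA that differed from the others consists of them.
App, exons 7 and 8, minus strand: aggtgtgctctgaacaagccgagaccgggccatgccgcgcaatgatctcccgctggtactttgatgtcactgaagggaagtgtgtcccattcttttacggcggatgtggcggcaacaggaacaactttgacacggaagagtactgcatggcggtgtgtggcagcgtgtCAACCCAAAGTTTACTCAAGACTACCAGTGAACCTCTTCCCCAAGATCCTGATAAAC

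Counts of the App circRNA of exons 7 to 8 were 16, 16 and 10 in PP, 22, 19 and 16 in DP, and 1, 4 and 3 in N. The circRNA of exons 7 to 13, which spans it, had 95, 137 and 67 counts in PP, 230, 167 and 170 in DP, and 58, 240 and 152 in N. The inner circRNA thus had 16.8%, 11.7% and 14.9% of the counts of the outer one in PP, 9.57%, 11.4% and 9.41% in DP, and 1.72%, 1.67% and 1.97% in N. The 3 cell types did not overlap in this share. Its log2 fold change from PP to N was -2.88 (SE 0.47, edgeR adjusted p = 0.000375), and from DP to N it was -2.22 (SE 0.46, edgeR adjusted p = 0.00335). The App circRNAs of exons 9 to 13, 9 to 11, 12 to 13 and 7 to 13 had log2 fold changes of 0.13, 0.08, 0.09 and 0.02 from PP to N, with SE of 0.28 to 0.31.

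The App locus was called for unequal change with an adjusted p of 0.00263 (edgeR diffSpliceDGE). This call held in 11 of 17 alternatives, with adjusted p from 0.000499 to 0.9999, and was lost without PP replicate 1 (0.107), N replicate 2 (0.408) or N replicate 3 (0.140), under total-count scaling (0.671), when nested circles were split into segments without shared reads (0.0947), and when 10 counts were required in every library, which removed the circRNA itself. The fall of the single circRNA kept an adjusted p under 0.05 in all 16 alternatives in which it could be tested, at most 0.00394. Per kilobase of counted length its level was 9.59 CPM, against 48.8 for the App circRNA of exons 9 to 11, and a fold of 5.09 between the densest and the sparsest circle of a locus was the highest among 79 hotspots with at least 3 circRNAs counted over annotated exons, where the median was 1.52. Whether the reads of exons 7 and 8 came from that circle, from the circle that spans it or from linear App RNA was not tested.

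**Figure D5:**
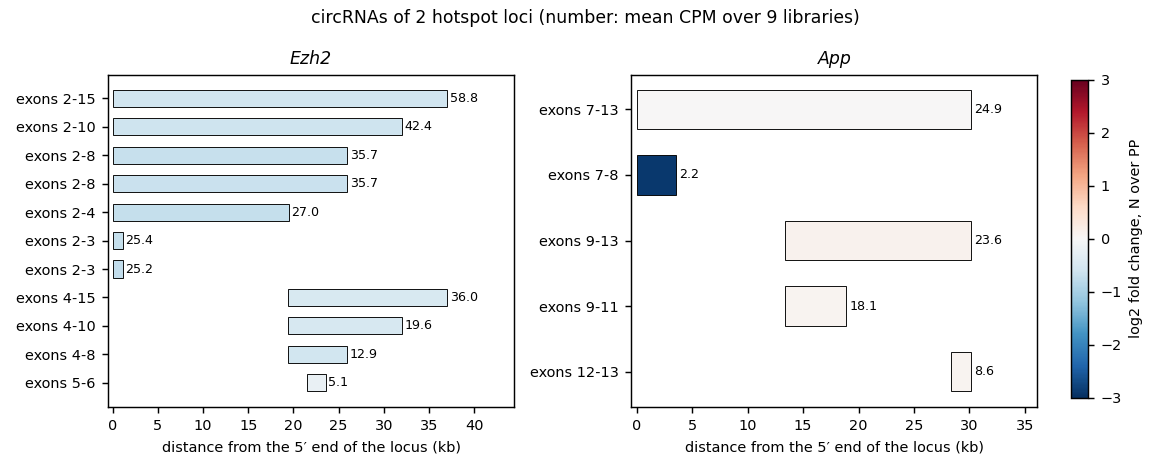
Intervals of the circRNAs of Ezh2 and App, drawn from the 5′ end of each locus in kb, with the mean CPM over 9 libraries beside each bar and colour for the log2 fold change, N over PP. Of the 11 Ezh2 circles 7 share the exon 2 acceptor, and the values of all 11 lie between -0.73 and -0.21, while in App the circle of exons 7 to 8 is at -2.88.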

How the data were processed

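The values are counts of reads for each circRNA and library from RNase R-treated total RNA of the 9 libraries. Per the study's methods and the submitters' processing notes, the authors aligned reads to mm9, predicted circRNAs from unmapped reads with find_circ and made the deposited count table with featureCounts (Subread 1.6.0), after a filter on expression, and base calls came from bcl2fastq 1.8.4. Counts were not limited to back-splice reads. Deposited starts count from 0 and are given here from 1. Members and gene lists were chosen with earlier results of these data known. In Python 3.11.15, loci were built from the table and matched to GENCODE vM1 genes on mm9, and all sequences were read from that genome.

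In R 4.3.3, edgeR 4.0.16 (filterByExpr, TMM, glmQLFit and glmQLFTest, cell type as the only factor over all 9 libraries, Benjamini-Hochberg adjustment, threshold 0.05) was fitted to all circRNAs, to counts summed over each locus, and, with diffSpliceDGE, to the change of circRNAs relative to their locus, so comparisons share libraries. The fits were tested on simulated data, with counts drawn independently for each circRNA or locus. Reads shared by nested circles were not simulated, so their effect on the tests was not examined. DESeq2 1.42.0 was an alternative, beside other scalings, filters, thresholds, left-out libraries and a replicate block. Named loci were those with the most circRNAs, the largest called rise or fall without overlap, unequal change, and the 2 of each list with the most circRNAs, and other loci named were chosen after their values were seen. Floors are 3 counts in each library, and intervals of ratios are exact 95% binomial and cover counting error only. Labels did not say whether libraries of one number shared animals. Same-numbered libraries had correlations of deviations from -0.26 to 0.30, over 0.1 in 1 of 9 pairs. Libraries of unlike number had -0.34 to 0.32, so this check could not tell whether animals were shared. The main fit used no pairing. Results for a few loci are not reported here.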

Additional observations from a re-analysis of the deposited data

How the results depend on the processing

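Without PP replicate 3 and N replicate 1 together, hotspot circRNAs called numbered 120 from PP to DP, 184 from DP to N and 242 from PP to N, in place of 7, 84 and 137, loci numbered 23, 35 and 46 in place of 1, 14 and 24, and 1 locus changed unequally from DP to N in place of 0. Leaving out each library in turn gave 4 to 32, 52 to 140 and 101 to 200 circRNAs, 1 to 4, 9 to 25 and 18 to 36 loci, and 0 to 1 locus with unequal change from DP to N and from PP to N, where the main count was 1. The highest counts of called circRNAs and loci came without PP replicate 3. Ezh2 reversed from PP to DP, from -0.10 to 0.65, without PP replicate 3 and N replicate 1. Total-count scaling gave 4 circRNAs from PP to DP, and 66 circRNAs, 14 loci and 0 loci with unequal change from PP to N. Requiring 10 counts in every library, which left 281 hotspot circRNAs, gave 1, 33 and 70 circRNAs and 0 loci with unequal change from PP to N. With 4 or more circRNAs as the threshold there were 12, 149 and 235 circRNAs and 3, 32 and 55 loci, and with 6 or more there were 3, 47 and 73 circRNAs, 0, 6 and 11 loci, and 0 with unequal change from PP to N. The replicate block gave 4, 70 and 120 circRNAs and 1, 11 and 22 loci, and 2 of 9 libraries correlated best with one of their own number. DESeq2 gave 14 circRNAs and 3 loci from PP to DP. Called loci from PP to DP numbered 2 with no filter, without the high-count entries, by the most abundant circRNA and by circRNAs without overlap. Disjoint segments along nested circles gave 0 loci with unequal change from PP to N. The alternatives of circRNAs without overlap and of disjoint segments were chosen after seeing the data. The median level of 8.03 CPM was 11.4 per kilobase and 6.09 CPM with 4 or more circRNAs. Joining circRNAs only by a shared start or end left 59 loci in place of 88. Counts of calls in this section are of hotspots alone, without the share over all circRNAs or loci in the same fit. Causes were not tested. Limits are the 3 libraries of each group, of which PP replicate 3 and N replicate 1 had effective sizes of 2153859 and 2259813 against up to 8839177 elsewhere, reads counted for several overlapping circRNAs, and counts that do not separate circular from linear or intronic RNA. The median hotspot circRNA had 14 counts in N replicate 1 and 63 in DP replicate 1.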
